A study of Mus musculus with 4 samples.

Results

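The genes described here encode the transport machinery of the primary cilium and the gate at its base, and they were followed in growth plate chondrocytes that had or had lost Ift88, a core transport subunit. They were taken by their symbol in the array annotation. All 60 genes of the list were found, on 97 of the 45037 probe sets tested, and they make up 60 of the 18193 genes with a value. They fall into 17 subunits of intraflagellar transport complex B (IFT-B), 6 of complex A (IFT-A), 8 subunits of the motors kinesin-2 and dynein-2, 10 genes of the BBSome and its chaperonins, and 19 genes of the transition zone and the ciliary membrane.

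The series holds 4 Affymetrix arrays, 2 of control mice labelled wild-type and 2 of Col2aCre;Ift88fl/fl mice labelled Ift88-deleted. All mice were on the C57BL/6 background and 7 days old. Chondrocytes of the proliferative zone were cut with an 18 gauge needle from 40 µm sections of the upper tibia and lower femur, and 50 ng of total RNA per sample was amplified in 2 cycles. Cre is driven here by the promoter of the type II collagen gene, so cells of the cut tissue that never used that promoter would keep Ift88. Whether the controls carried Cre or a floxed allele, whether animals were pooled, and their sex and litter are not given in the sources used here. The design calls the samples biological replicates.

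A cilium is built and kept by trains of IFT proteins that run along its microtubules. IFT-B trains are carried to the tip by kinesin-2, and IFT-A with dynein-2 serves the return to the base. The BBSome rides on these trains and carries membrane proteins out of the cilium, and the transition zone filters what enters and leaves. In the growth plate the cilium is known for its part in Hedgehog signalling, through which chondrocytes are told to divide or to mature.

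Many promoters of ciliary genes hold the X-box, a motif bound by the RFX transcription factors, and it is shown here as a feature that the choice of genes did not use. RefSeq promoter entries of GRCm38.p6, which run from 250 bases before to 50 bases after a start site, were on hand for 54 of the 60 genes. There are 60 such entries, since some genes have several. The start site of the entry is the one used for distances here. It is the edge of the gene's annotated span in 19 entries and lies inside that span in 41, in 9 of these by more than 1000 bases. The form searched was GTNNCC and GGNNAC with 2 free bases between them, which reads the same on both strands. It was found for 14 of the 54 (25.9%) and for 583 of 27025 genes in all (2.16%). A looser form that takes in the first, GTNNCC and GNNAC with 3 free bases between, was found on either strand for 16 of the 54 and for 5.26% of all genes. With more bases fixed, GTTNCC and GNAAC with 3 between, it was 6 and 0.936%. The sites of the 6 genes that are also described by their values below are printed 5′ to 3′ on the gene's strand, with the 14 bases of the form in capitals.
Ttc26 (chr6:38381483-38381512, plus strand): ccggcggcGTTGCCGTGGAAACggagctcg
Ift57 (chr16:49699199-49699228, plus strand): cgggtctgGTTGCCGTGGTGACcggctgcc
Bbs1 (chr19:4906605-4906634, minus strand): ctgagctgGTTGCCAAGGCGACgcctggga
Mks1 (chr11:87853183-87853212, plus strand): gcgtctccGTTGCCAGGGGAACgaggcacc
Ahi1 (chr10:20952560-20952589, plus strand): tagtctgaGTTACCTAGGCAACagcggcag
Tmem231 (chr8:111933781-111933810, minus strand): cgccgtcgGTTGCCGTGGAGACtcggcgct
The letters agree at both ends by construction and differ in the spacer and at the free positions. In Ahi1, Bbs1 and Tmem231 the form lies after the start site of the entry, and in the other 3 before it.

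**Figure D1:**
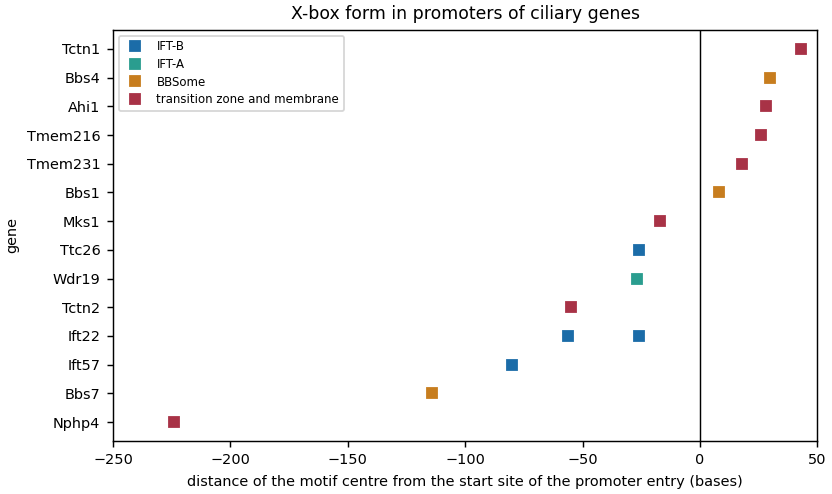
Distance in bases from the start site of the promoter entry (vertical line) to the centre of each match to GTNNCC and GGNNAC with 2 bases between in the promoters of 14 ciliary genes, coloured by complex. The 15 matches run from -224 (Nphp4) to 43 (Tctn1), 9 of them before the start site, and Ift22 has 2.

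The 250 bases before the start site of the entry are printed for Ift88, the deleted gene, and for Ift57, a peripheral IFT-B subunit whose probe sets disagreed most. That site lies 7 bases inside the annotated span of Ift88 and at the edge of that of Ift57. The form is in capitals where present.
Ift88 (chr14:57423821-57424070, plus strand): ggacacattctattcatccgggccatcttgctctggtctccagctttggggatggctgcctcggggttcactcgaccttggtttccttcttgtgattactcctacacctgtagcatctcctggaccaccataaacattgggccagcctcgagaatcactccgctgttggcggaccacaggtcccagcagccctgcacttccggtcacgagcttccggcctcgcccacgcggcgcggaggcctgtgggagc
Ift57 (chr16:49699044-49699293, plus strand): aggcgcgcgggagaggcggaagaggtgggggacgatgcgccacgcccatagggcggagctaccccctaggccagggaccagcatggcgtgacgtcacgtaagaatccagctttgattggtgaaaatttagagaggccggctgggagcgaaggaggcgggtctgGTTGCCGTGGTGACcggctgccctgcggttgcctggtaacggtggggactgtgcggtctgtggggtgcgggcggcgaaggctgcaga
The Ift57 promoter holds 1 match to the searched form and that of Ift88 none within these bases. For Ift88 this says only that these letters are not in the window. The Ift57 bases also hold gttgcctggtaac, the same left and right parts with 1 free base between. That spacing was not searched in any promoter, so it is neither in capitals nor in the counts.

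Values are log2 after the authors' RMA normalization, with the median of the 4 arrays subtracted from each probe set, so they show differences between arrays and no levels. A gene's value is the mean of its probe sets, and a difference is always the mean of the 2 Ift88-deleted arrays minus that of the 2 controls. Each gene was tested with limma, and p values were adjusted over all 18193 genes by the Benjamini-Hochberg method. None of the 60 ciliary genes passed an adjusted p of 0.05, against 2 of all genes (0.011%), and the smallest adjusted p among them was 0.676 (Arl3). At an unadjusted p under 0.05 there were 3 lower genes (Ift20, Wdr34 and Arl3), where 3.68% of all genes were lower by this rule, and 0 higher, where 2.29% were. These shares are near those of all genes. In this design an exact two-sided permutation test of 2 against 2 arrays has 3 splits and cannot give a p below 1 in 3.

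Both groups stood apart, meaning that neither overlaps the other, in 19 lower and 7 higher of the 60 genes. Of all genes 18.6% were apart and lower and 14.7% apart and higher. No minimum gap was asked for, and in 3 of these 26 genes (Dync2h1, Cluap1 and Tmem231) the gap was under 0.01. The median difference of the 60 was -0.07, with 35 below 0, and that of all genes -0.01, with 51.9% below 0. The differences ran from -0.57 (Ift20) to 0.46 (Dync2h1) and the fold of Ift20, the largest, was 1.48. A lower value in tissue RNA does not tell fewer cells of a type from less RNA per cell.

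Control 1 stood above the other arrays for most of these genes. It had the highest value of the 4 for 38 of the 60 genes, where it did so for 32.4% of all genes. Its median over the 60 was 0.19. That of control 2 was -0.05, close to the -0.04 and -0.03 of the deleted arrays. Without control 1 the median difference was 0.04, with 21 genes apart and lower and 27 apart and higher (40.2% and 30.0% of all genes). Without control 2 it was -0.19, with 41 lower and 11 higher (38.3% and 40.2%). The gap between both controls was larger than the difference between the groups for 42 of the 60, and for 66.8% of all genes.

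**Figure D2:**
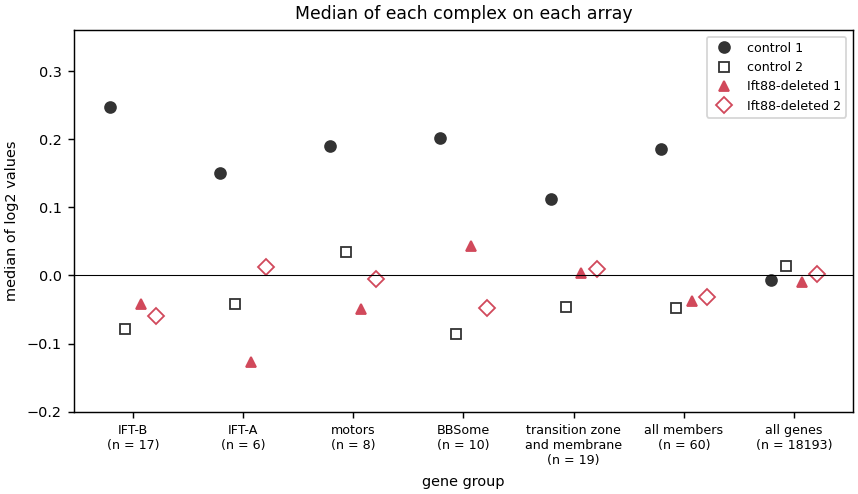
Median of the log2 values of each complex, of all 60 ciliary genes and of all 18193 genes on each array (filled circle control 1, open square control 2, filled triangle Ift88-deleted 1, open diamond Ift88-deleted 2). Control 1 stands highest for each of the 5 complexes, at 0.11 to 0.25, while the other arrays lie between -0.13 and 0.04 and the medians of all genes between -0.01 and 0.01.

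Other measures moved with the arrays too. Both controls had the high Xist and low Eif2s3y values of female tissue and both deleted arrays the opposite (differences -7.36 and 3.34, limma adjusted p = 9.28e-05 and 0.00876), so sex by these genes and genotype cannot be told apart in any value here. The 3′ minus 5′ difference of the Actb control probe sets was 0.10 and -0.05 in the controls and -0.10 and -0.14 in the deleted arrays. That of Gapdh was -0.18 and 0.07 against -0.07 and -0.41, with overlap. The control probe sets are centred on their medians too, so these values compare arrays and do not tell how intact the RNA was. All 14 measured chondrocyte genes of a marker list, such as Col2a1, Acan and Sox9, were in the brightest class of original values, 8 or more on the log2 scale, and their median difference was 0.03. Of 23 genes of motile cilia, which chondrocytes do not bear, 6 were in that class and the median difference was 0.01. A gene was placed by its brightest probe set, and 32.2% of all probe sets were in that class. The share of all genes was not counted. The skeletal muscle list lay lower in 14 of 16 genes (median difference -0.21, with array medians of -0.03 and 0.31 in the controls and -0.06 and -0.05 in the deleted arrays), and in 7 of 16 without control 2. The fast muscle genes Tnni2 (-1.96), Tnnc2 (-1.08) and Mylpf (-1.05) were low in both deleted arrays, by more than any ciliary gene (limma adjusted p = 0.0673, 0.161 and 0.312). The medians of the lists for hypertrophic chondrocytes (6 genes, 0.10), osteoblasts (5, -0.13), perichondrium and fibroblasts (7, 0.21), blood and marrow (12, -0.08), osteoclasts (7, -0.11) and endothelium (6, 0.08) lay on both sides of 0. Control 2 was the higher control for the medians of all 6 and for muscle, where control 1 was the higher one for the ciliary genes. Single genes of these 6 lists also differed by more than any ciliary gene. Dcn (0.951) and Thy1 (0.745) of the fibroblast list were apart and higher, and Dmp1 (-0.716) of the osteoblast list apart and lower (limma adjusted p = 0.818, 0.814 and 0.321). In others, such as Postn (1.655), the groups overlapped. The part of these measures in the ciliary values was not tested.

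**Figure D3:**
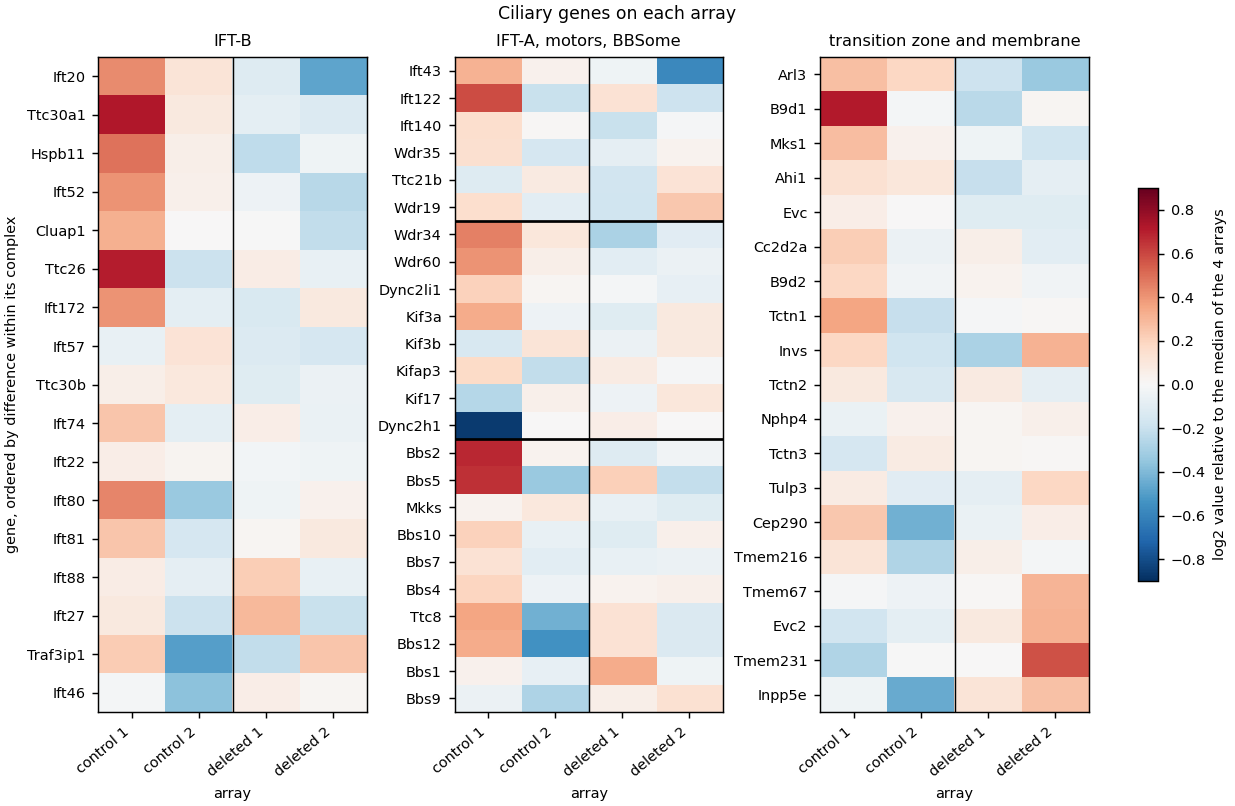
Log2 value of each of the 60 ciliary genes relative to the median of the 4 arrays (red above, blue below), 1 row per gene ordered by difference within its complex, 1 column per array. Control 1 holds the deepest red in IFT-B and the BBSome, up to 0.72 for Ttc30a1, and the deepest blue for Dync2h1 at -0.86.

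Of the 17 subunits of IFT-B 12 lay below 0, 8 were apart and lower and 1 was apart and higher, and the median difference was -0.16. Without control 1 the median was 0.06. The 11 core subunits had a median of -0.08 and the 6 peripheral ones of -0.17.

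Ift88, whose floxed allele is deleted, showed no detectable difference. Its single probe set read 0.07 and -0.08 in the controls and 0.22 and -0.07 in the deleted arrays. The groups overlapped, and the difference was 0.08 (SE 0.154, 95% interval -0.30 to 0.46, limma adjusted p = 1.00). The gene spans chr14:57424064-57517936 in GRCm38.p6. No probe position was used here, so the probe set may lie outside the deleted part and its value does not check the deletion.

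Ift20, a peripheral subunit that is also found at the Golgi (chr11:78536361-78541732), had the largest difference of the 60. It read 0.42 and 0.12 in the controls and -0.12 and -0.47 in the deleted arrays, with the groups apart. The difference was -0.57 (SE 0.183, 95% interval -1.02 to -0.12, limma adjusted p = 0.792), and leaving out single arrays gave -0.74 to -0.39. With the groups apart, leaving out a single array cannot change the sign, so only the sizes are informative. The 2 arrays of each group differed by 0.31 and 0.35.

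Among the core subunits, Ttc30a1, an Ift70 protein, read 0.72 and 0.08 in the controls against -0.08 and -0.12. Its difference of -0.51 (SE 0.223, limma adjusted p = 0.851) was -0.19 without control 1 and was -0.83 without control 2. Its paralog Ttc30b, a neighbour on chromosome 2, read 0.06 and 0.10 against -0.11 and -0.06, a difference of -0.16 (SE 0.123). Both controls lay above both deleted arrays in each paralog, and Ttc30b did so without a high control 1. Whether their probe sets bind each other's RNA was not tested.

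Hspb11, the Ift25 partner of Ift27, read 0.49 and 0.05 against -0.23 and -0.04, with a difference of -0.40 (SE 0.185). The scaffold subunit Ift52 read 0.41 and 0.05 against -0.05 and -0.25, with a difference of -0.38 (SE 0.171). In both the groups were apart with control 1 the highest array, and neither passed (limma adjusted p = 0.870 and 0.869). Ift46, which binds Ift52, went the other way, at -0.02 and -0.37 against 0.06 and 0.02, a difference of 0.23 (SE 0.160) that was 0.05 without control 2.

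Cluap1, the peripheral subunit Ift38, read 0.32 and 0.00 against -0.00 and -0.22 (difference -0.27, SE 0.166), with the groups barely apart. Ttc26 (Ift56) read 0.71 and -0.19 against 0.06 and -0.06, and its difference of -0.26 (SE 0.292) turned to 0.19 without control 1. Ift172, the largest peripheral subunit, read 0.40 and -0.09 against -0.14 and 0.09, and its difference of -0.18 turned to 0.06 in that fit. In Ttc26 and Ift172 the groups overlapped and control 1 alone was high.

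Ift57 joined 2 probe sets that went opposite ways. One read 0.52 and 0.24 in the controls and -0.24 and -0.35 in the deleted arrays (difference -0.68, SE 0.161), and with all 45037 probe sets tested by themselves it had the lowest p of the ciliary probe sets (limma adjusted p = 0.587). The other read -0.66 and 0.01 against -0.01 and 0.05 (difference 0.35, SE 0.242). Their mean of -0.16 describes neither. The remaining 6 subunits (Ift22, Ift27, Ift74, Ift81, Ift80 and Traf3ip1) had differences of -0.08 to 0.15, with 1 of the 6 apart and lower.

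In IFT-A, 5 of 6 subunits lay below 0, with a median difference of -0.10, and 2 were apart and lower. Ift43, a peripheral subunit, read 0.32 and 0.04 in the controls and -0.04 and -0.58 in the deleted arrays. The groups were apart, with the low value of Ift88-deleted 2 making up much of the difference of -0.49 (SE 0.216, limma adjusted p = 0.859), which was -0.21 without that array. Ift140 of the core read 0.15 and 0.01 against -0.20 and -0.01, a difference of -0.19 (SE 0.140). Ift122, its core partner, read 0.59 and -0.20 against 0.13 and -0.19, and the difference of -0.22 (SE 0.277) turned to 0.17 without control 1. Wdr35 (Ift121) read 0.14 and -0.15 against -0.08 and 0.04, a difference of -0.02 (SE 0.154) that took both signs with single arrays left out. Ttc21b (Ift139) was at -0.01 and Wdr19 (Ift144) at 0.01, and in all 3 the groups overlapped. Without control 1 the median of IFT-A was 0.01.

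The subunits of both motors did not share a direction. Of the 4 of dynein-2, which moves trains back to the base, 3 were apart and lower, and the groups of the other, Dync2h1, all but touched. Those of all 4 kinesin-2 genes overlapped. Wdr34, an intermediate chain (chr2:30031551-30048879), read 0.45 and 0.10 in the controls and -0.28 and -0.10 in the deleted arrays (difference -0.47, SE 0.167, limma adjusted p = 0.814). Its partner chain Wdr60 read 0.40 and 0.05 against -0.10 and -0.05 (difference -0.30, SE 0.159). The light intermediate chain Dync2li1 read 0.21 and 0.02 against -0.02 and -0.08 (difference -0.16, SE 0.134). In these 3 both deleted arrays lay under both controls and control 1 was highest; without it the differences were -0.30, -0.13 and -0.07.

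Dync2h1, the heavy chain that does the mechanical work, had a higher mean in the deleted group, at -0.86 and 0.00 against 0.06 and 0.00, where control 2 lay 0.000972 below Ift88-deleted 2. The difference of 0.46 (SE 0.280, limma adjusted p = 0.925) came from control 1 alone and was 0.03 without it. The kinesin-2 genes lay between -0.15 (Kif3a) and 0.13 (Kif17), with Kif3b at 0.03 and the accessory subunit Kifap3 at 0.05, all with overlap. The 4 probe sets of Kif3a ran from -0.57 to 0.21, so its mean hides a spread wider than that of the 4 kinesin-2 genes. Over the 8 motor genes the median difference was -0.06.

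**Figure D4:**
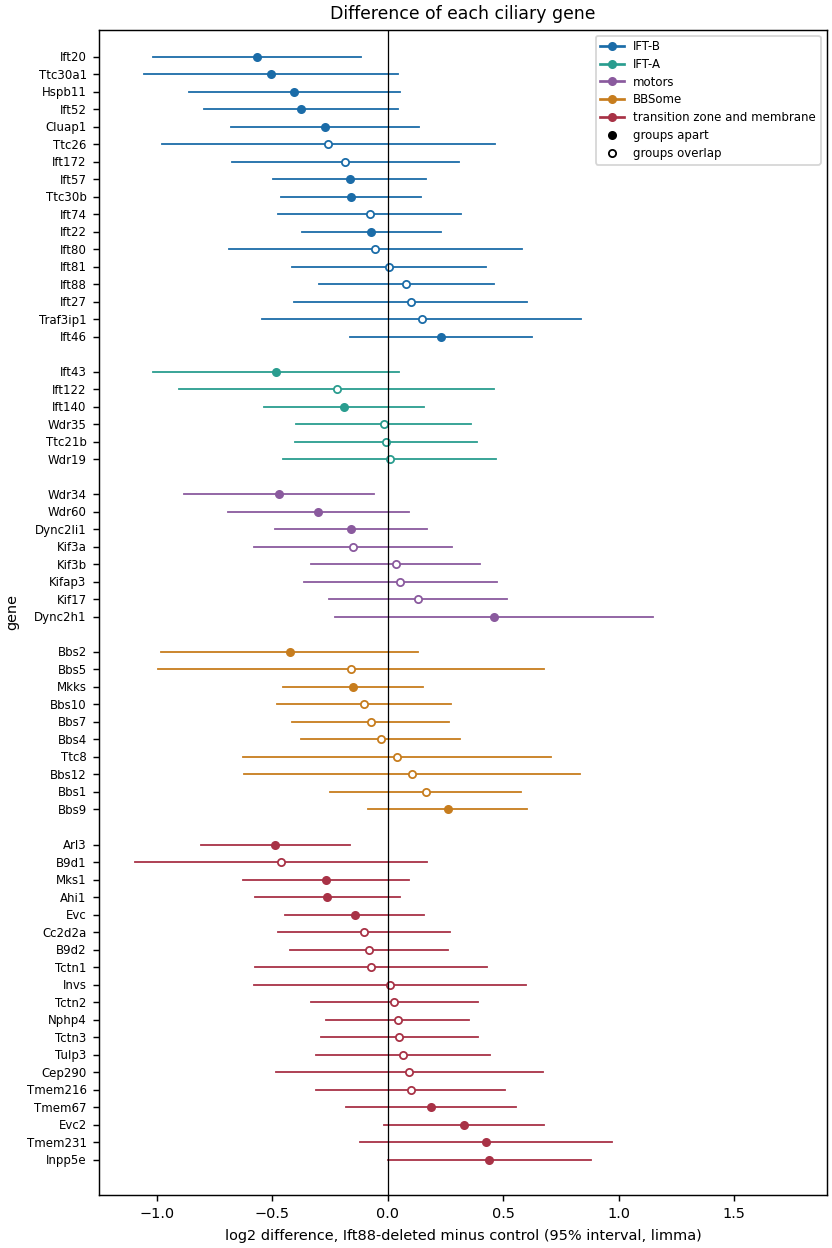
Log2 difference (Ift88-deleted minus control) of each of the 60 ciliary genes with its 95% interval from limma, grouped by complex; filled points mark genes whose 2 groups do not overlap and open points those that overlap. The intervals of Ift20, Wdr34 and Arl3 lie below 0 before any adjustment over genes, and that of Inpp5e ends at 0.00.

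The BBSome genes had a median difference of -0.05, with 2 of 10 apart and lower and 1 apart and higher. Bbs2, a subunit, read 0.68 and 0.03 in the controls and -0.12 and -0.03 in the deleted arrays. The groups were apart, and the difference of -0.43 (SE 0.226, limma adjusted p = 0.898) was -0.10 without control 1. Bbs9 read -0.05 and -0.27 against 0.05 and 0.14, a difference of 0.26 (SE 0.140) with the groups apart. It was 0.15 to 0.37 with single arrays left out. Bbs1, the subunit that binds the GTPase Arl6, read 0.04 and -0.07 against 0.34 and -0.04 (difference 0.16, SE 0.168). Bbs5 read 0.66 and -0.33 against 0.22 and -0.22, and both replicate gaps, 0.99 and 0.43, exceeded the difference of -0.16 (SE 0.339). Of the chaperonin-like factors that assemble the complex, Mkks was at -0.15 with the groups apart, Bbs10 at -0.10 and Bbs12 at 0.10. The probe sets of Mkks disagreed, 1 at -0.37 with the groups apart and 1 at 0.07 with overlap. Bbs4, Bbs7 and Ttc8 lay between -0.08 and 0.04. Without control 1 the median of the 10 was 0.15 and 2 lay below 0.

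The transition zone and ciliary membrane genes lay on both sides of 0. The 19 had a median difference of 0.03, with 4 apart and lower and 4 apart and higher.

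Arl3, the GTPase that releases lipid-anchored cargo inside the cilium (chr19:46531109-46573182), read 0.27 and 0.18 in the controls and -0.18 and -0.34 in the deleted arrays. The groups were apart by more than either replicate gap, 0.08 and 0.15. The difference was -0.49 (SE 0.132, 95% interval -0.81 to -0.16, limma adjusted p = 0.676), and it stayed between -0.56 and -0.41 with single arrays left out. It had the lowest p of the 60 genes and did not pass over all genes.

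Inpp5e, the phosphatase that sets the lipid makeup of the ciliary membrane and reaches the cilium as cargo of Arl3, read -0.04 and -0.46 in the controls and 0.12 and 0.27 in the deleted arrays. The difference was 0.44 (SE 0.178, limma adjusted p = 0.830), with both of its probe sets above 0, at 0.35 and 0.53. The second of them read -0.22 and -0.22 against 0.38 and 0.22, with the groups apart (SE 0.143, limma adjusted p = 0.684). Arl3 was lower and Inpp5e higher in both deleted arrays than in both controls, and neither passed over all genes.

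Evc2 and Evc form a pair at the base of the cilium that takes part in the Hedgehog response. Evc2 read -0.17 and -0.09 against 0.09 and 0.31, a difference of 0.33 (SE 0.140, limma adjusted p = 0.835) with the groups apart. Evc was at -0.14 (SE 0.123) with the groups apart and lower. The partners thus had opposite signs, and neither passed. Tulp3, which carries receptors into the cilium with IFT-A, was at 0.07 with overlap.

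In the transition zone proper, 14 genes had a median difference of 0.02. B9d1, of the B9 domain trio, read 0.71 and -0.02 in the controls and -0.24 and 0.02 in the deleted arrays, and its difference of -0.46 (SE 0.257) was -0.10 without control 1. Mks1 of the same trio read 0.27 and 0.04 against -0.04 and -0.18 (difference -0.27, SE 0.146), and B9d2 was at -0.08. B9d1 overlapped between the groups and Mks1 did not. Ahi1, which encodes jouberin, read 0.14 and 0.10 against -0.21 and -0.08 (difference -0.26, SE 0.127, limma adjusted p = 0.881). Its values did not rest on control 1 and were -0.33 to -0.20 with single arrays left out, with probe sets at -0.43 and -0.09.

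Tmem231, a membrane protein of the same barrier, read -0.27 and -0.00 against 0.00 and 0.57, and the difference of 0.43 (SE 0.222) was 0.14 without Ift88-deleted 2. Tmem67, the receptor-like meckelin, read -0.01 and -0.05 against 0.01 and 0.31 (difference 0.19, SE 0.150), and was 0.04 without that array. In both the groups were apart and the value rested on Ift88-deleted 2. Besides Evc, Tulp3 and B9d2, the genes not given by array (Nphp4, Invs, Cep290, Tmem216, the tectonics Tctn1, Tctn2 and Tctn3, and Cc2d2a) lay between -0.10 and 0.10, all with overlap.

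Genes with several probe sets gave mixed readings. There were 25 of them, and 19 had probe sets on both sides of 0. Their median difference was -0.01, against -0.10 for the 35 genes with 1 probe set. Tested singly, 0 of the 97 probe sets passed an adjusted p of 0.05, where 0.0444% of all probe sets did. At an unadjusted p under 0.05 there were 6 lower and 1 higher, where 3.18% and 3.0% of all probe sets were. Hspb11 had a probe set of the brightest class at -0.74 and one of the dimmest class, 2 to 4, at -0.07.

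**Figure D5:**
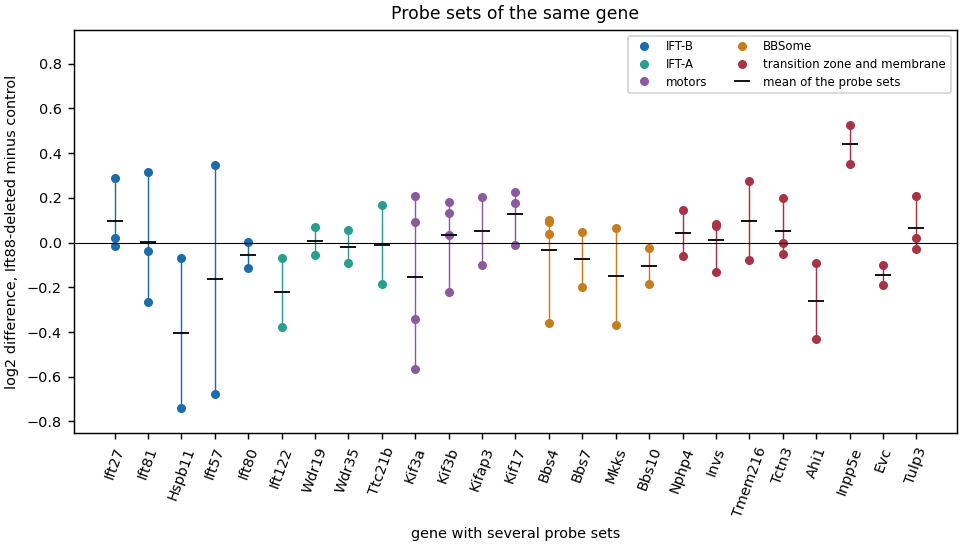
Log2 difference (Ift88-deleted minus control) of each probe set of the 25 ciliary genes that have several, coloured by complex, with the mean used as the gene's value as a black bar. Ift57 has the widest span, from -0.68 to 0.35, and Inpp5e has both probe sets above 0.

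The X-box form did not part the values. The 14 genes with it had a median difference of -0.05 (range -0.27 to 0.43), with 4 apart and lower and 1 apart and higher. The 40 genes with a promoter entry and without it had a median of -0.08 (range -0.57 to 0.46), with 13 and 5.

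A further list of ciliary and ciliogenesis genes outside the 60, with 63 measured genes, had 0 past the adjusted threshold and a median difference of -0.03. In this list 14 were apart and lower and 6 apart and higher, where 18.6% and 14.7% of all genes were. Control 1 had the highest value for 37 of the 63, and for 32.4% of all genes. The lowest p values were those of Ehd3, a membrane-remodelling protein of early ciliary vesicles (difference -0.34), Septin2, of the diffusion barrier at the base (0.34), Cby1, of the basal body (-0.35), and Tmem107, of the transition zone (-0.36), with limma adjusted p of 0.830, 0.830, 0.858 and 0.890. As a readout of the pathway the cilium serves, the Hedgehog targets Gli1 and Ptch1 differed by -2.62 (SE 0.218) and -1.62 (SE 0.140), with both controls above both deleted arrays (limma adjusted p = 0.0673 and 0.0683). Those sizes stand beside -0.57 for the largest difference among the 60 genes.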

How the data were processed

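The deposited table gives 1 value per probe set and array on a log2 scale: per the submitters' processing notes the authors ran RMA (version not given in the sources used here), and the values themselves show that each probe set's median over the 4 arrays was subtracted (largest departure 5e-07), which loses levels. The log base is inferred from the values. The number of arrays limits the precision.

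Of 45101 probe sets, 64 controls were left out. The array annotation gives 1 gene to 34945, several to 932 and none to 9160; 34741 took their symbol from the RefSeq table of GRCm38.p6. Gene values are means over probe sets that name 1 gene. The test was limma 3.58.1 in R 4.3.3 on group alone, eBayes without trend (3.83 prior and 2 residual degrees of freedom), two-sided, and was tested on simulated data.

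A coarse class of original level was read from the numeric steps of single-precision values, within 0.2 of a step. It is rough: 21.9% of the brightest would pass at a still wider step as well, and 0.4% had no class.

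The members and lists were chosen with earlier results of these data known. Arrays were described singly for Ift88, the Ttc30 paralogs, the largest absolute differences of each complex (8 for IFT-B and for transition zone and membrane, 4 for the others), and genes with an unadjusted p under 0.05 or probe sets more than 1 apart. From the further ciliary list the 4 lowest p values were named. Alternatives were renewed quantile normalization, array medians subtracted, single probe sets, genes on X and Y left out, no moderation and an adjusted limit of 0.1. Also run were a block for the replicate number, leaving out each array, and leaving out the dimmest class together with probe sets of no class. The motif forms were added after the data were seen.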

Additional observations from a re-analysis of the deposited data

How the results depend on the processing

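None of the 60 ciliary genes passed an adjusted p of 0.05 in limma under any alternative run, nor an adjusted p of 0.1 (3 had an unadjusted p under 0.05). Lower genes at an unadjusted p under 0.05 were 3 with all arrays, 6 with single probe sets and 5 without the dimmest class. Higher ones were 0 with all arrays, 2 after quantile normalization, 1 with single probe sets, 2 with the replicate block and 1 without genes on X and Y. Under quantile normalization, the block, the X and Y setting and the dimmest-class setting, the share of all genes at this limit was not counted. Genes with at least 1 probe set apart and higher were 14, where 7 were with 1 value per gene. In the counts with single probe sets a gene enters by any of its probe sets. The share of all genes by that rule was not counted. After quantile normalization the median difference was -0.015 for all 60 genes, where it was -0.073 before. It was -0.001 for the BBSome and -0.132 for IFT-B. The median of the motors was 0.036 with single probe sets and -0.152 without the dimmest class. That last setting also dropped probe sets with no class, and among the motors it removed only that of Dync2h1 (difference 0.46). With more bases fixed, 6 genes had the X-box.

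With 1 array left out, lower genes at an unadjusted p under 0.05 ranged from 1 to 17 and higher ones from 0 to 5, those apart and lower from 21 to 41 and apart and higher from 10 to 27. Medians ranged from -0.193 to 0.038 (all 60), -0.248 to 0.061 (IFT-B), -0.214 to 0.010 (IFT-A), -0.199 to -0.020 (motors), -0.215 to 0.155 (BBSome) and -0.171 to 0.145 (transition zone and membrane). Except for the motors, each took both signs. Of all 60 genes 27 kept 1 direction, and the 26 with the groups apart do so by construction. The share of all genes was not counted. The 31 genes given by array were chosen mostly for large differences. Of these, 24 kept 1 direction and 7 did not: Ift88 (-0.06 to 0.22), Ttc26 (-0.71 to 0.19), Ift172 (-0.43 to 0.06), Ift122 (-0.62 to 0.17), Wdr35 (-0.17 to 0.13), Bbs1 (-0.03 to 0.35) and Bbs5 (-0.66 to 0.33). No other setting that kept 1 value per gene turned one of the 31. Single probe sets were not compared in this way, and those of Ift57 (-0.68 and 0.35) and Wdr35 (-0.09 and 0.06) lay on both sides of 0.

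The replicate numbers are not stated to pair the arrays. Deviations of same-numbered arrays correlated at 0.139 over 18193 genes, and the block changed no adjusted call among the 60. Xist lost its call without moderation, and Eif2s3y without moderation, with the block, without control 1 (limma adjusted p = 0.101) and without control 2 (0.0584). Gli1 and Ptch1 passed after quantile normalization, without Ift88-deleted 1 and without Ift88-deleted 2. With levels subtracted, signal over background could not be used as a filter.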
